A study of Mus musculus with 3 samples.

Results

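Transcripts of 8 genes of the complement system were followed in single cells from 3 sites of injured mice, out of 27998 genes in the count tables. The genes were taken by symbol and are the 3 chains of C1q (*C1qa*, *C1qb*, *C1qc*), the central component *C3*, factor B (*Cfb*), properdin (*Cfp*), and the receptors *C3ar1* and *C5ar1*. All 8 were found in the tables. Male C57BL/6J mice of 10 weeks received a burn on the back and a complete tenotomy of the Achilles tendon, and unsorted cells were collected on day 3. Each of 3 sites, bone marrow, blood, and tendon, gave one 10x Genomics 3′ library, and all were taken after injury, so none of the libraries analysed here is from uninjured mice. How many mice were pooled per site is not stated. Marrow was flushed from the bone and blood leukocytes were mononucleated cells from a density gradient, whereas tendon tissue alone went through enzymatic digestion. Site, preparation, and library therefore cannot be told apart, and with 1 library per site no test was made. All intervals are 95% intervals that cover counting error only.

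The libraries held 1855 cells (bone marrow), 2241 cells (blood), and 5629 cells (tendon injury site), with 22542581 to 90621052 unique molecular identifiers (UMIs) in total and a median of 8316 to 22836 UMIs per cell. After filters and removal of likely doublets, 1813, 2146, and 4780 cells were kept. Each library was clustered on its own without the genes described here, and clusters received a cell class, written as "-like", from fixed marker lists. No bone marrow cluster was macrophage-like. In tendon, 2 clusters had their highest marker score for macrophages but were left unnamed because of their leading genes, 1 of 491 cells led by *Cd74* and *H2-Aa* and 1 of 122 cells led by *Acp5*, *Atp6v0d2*, and *Mmp9*. Few cell barcodes were shared between libraries (6 between blood and tendon, 2 between bone marrow and blood, 1 between bone marrow and tendon). Levels are given as counts per 1000000 (CPM), the UMIs of a gene divided by all UMIs of the group of cells. A 3′ count does not scale with transcript length in a known way, so levels are compared between groups of cells and not between genes.

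Complement is a cascade of plasma proteins that marks microbes and damaged cells for removal and recruits leukocytes. The classical pathway starts when C1q, a hexamer of A, B, and C chain triplets, binds immune complexes or dying cells, while the alternative pathway amplifies cleavage of C3 through a convertase that contains factor B and is stabilized by properdin. Cleavage of C3 and C5 releases the anaphylatoxins C3a and C5a, whose receptors are encoded by *C3ar1* and *C5ar1*. The liver makes most circulating components, whereas C1q comes mainly from macrophages and related myeloid cells, and properdin from leukocytes.

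The C1q chain genes lie side by side on the minus strand of chromosome 4 (GRCm38), *C1qb* at chr4:136880129-136886187, *C1qc* at chr4:136889804-136893065, and *C1qa* at chr4:136895917-136898803, together within 18675 bases. *Cfb* (chr17:34856374-34862518), *C3* (chr17:57203970-57228136), *C3ar1* (chr6:122847138-122856161), *C5ar1* (chr7:16246743-16259540), and *Cfp* (chrX:20925454-20931555) are also on the minus strand. RefSeq promoter windows, from 250 bases before to 50 bases after the annotated start, were found for 6 of the 8 genes. Those of 3 genes are printed 5′ to 3′ on the gene's strand (GRCm38.p6), namely the C1q chains *C1qb* and *C1qc*, whose levels moved together, and *C3*, whose levels were highest in other cells. Capitals mark matches, on either strand, to GAGGAA, the purine-rich core bound by PU.1, to TTGCNNAA, a core bound by C/EBP factors, and to TATAAA, the TATA box.
C1qb, chr4:136886151-136886450: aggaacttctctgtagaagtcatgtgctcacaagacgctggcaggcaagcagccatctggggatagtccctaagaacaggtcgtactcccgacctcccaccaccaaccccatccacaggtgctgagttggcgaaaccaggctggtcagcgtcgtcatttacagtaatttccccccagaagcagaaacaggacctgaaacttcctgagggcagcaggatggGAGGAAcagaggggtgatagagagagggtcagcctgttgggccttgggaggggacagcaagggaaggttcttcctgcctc
C1qc, chr4:136892865-136893164: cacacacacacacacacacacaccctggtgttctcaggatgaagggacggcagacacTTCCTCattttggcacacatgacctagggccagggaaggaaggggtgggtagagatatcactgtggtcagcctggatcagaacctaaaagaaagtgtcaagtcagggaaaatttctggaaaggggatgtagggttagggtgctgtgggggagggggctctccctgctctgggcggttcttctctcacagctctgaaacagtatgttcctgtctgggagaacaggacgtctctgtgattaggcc
C3, chr17:57228087-57228386: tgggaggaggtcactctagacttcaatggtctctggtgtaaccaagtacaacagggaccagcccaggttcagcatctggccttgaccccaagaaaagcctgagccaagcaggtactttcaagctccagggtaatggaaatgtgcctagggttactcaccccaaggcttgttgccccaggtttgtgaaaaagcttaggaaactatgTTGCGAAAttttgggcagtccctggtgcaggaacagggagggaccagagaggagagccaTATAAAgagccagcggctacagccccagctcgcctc

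The *C1qb* window held GAGGAA beginning 30 bases before the start (offset -30), and the *C1qc* window held it on the other strand (TTCCTC) at -193. Neither contained TTGCNNAA or TATAAA. In contrast, the *C3* window held no GAGGAA but held TTGCNNAA at -45 and TATAAA at 14 bases after the annotated start. GAGGAA occurs in 28.3%, TTGCNNAA in 10.8%, and TATAAA in 13.6% of the 32851 windows of the same table, so each match is a description of these letters and not of a bound site. Of the other windows, that of *Cfp* held GAGGAA on the other strand at 6 and 22, that of *C3ar1* held TATAAA at -235, and that of *C5ar1* held none of the 3 motifs.

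The C1q chains were highest in macrophage-like cells. In the 1521 macrophage-like cells of the tendon injury site, *C1qa* reached 2433 CPM (2412 to 2454), *C1qb* 3166 CPM (3141 to 3190), and *C1qc* 1500 CPM (1483 to 1517). The 37 macrophage-like cells of the blood had 3199 CPM of *C1qa*, 4297 CPM of *C1qb*, and 2817 CPM of *C1qc*. That cluster was led by *Prg4*, *Cd5l*, *Ptgis*, *Alox15*, and *Fcna*, with *C1qa* and *C1qc* themselves among its 10 leading genes, so its C1q level describes the cluster and is no separate result. Blood was drawn by cardiac puncture, and whether the cells of this cluster were circulating or came from tissue was not tested. Values for blood macrophage-like cells below all refer to this cluster. Both monocyte-like groups lay far lower. Tendon monocyte-like cells had 38.3, 108.6, and 30.45 CPM of *C1qa*, *C1qb*, and *C1qc*, and blood monocyte-like cells had 21.5, 31.9, and 14.4 CPM. Summed over the chains, tendon macrophage-like cells had 7098 CPM and tendon monocyte-like cells 177 CPM, a 40.0-fold difference (log2 ratio 5.32, 5.22 to 5.42). The unnamed tendon clusters came between them, with 749 CPM of *C1qa*, 1142 CPM of *C1qb*, and 446 CPM of *C1qc*.

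**Figure D1:**
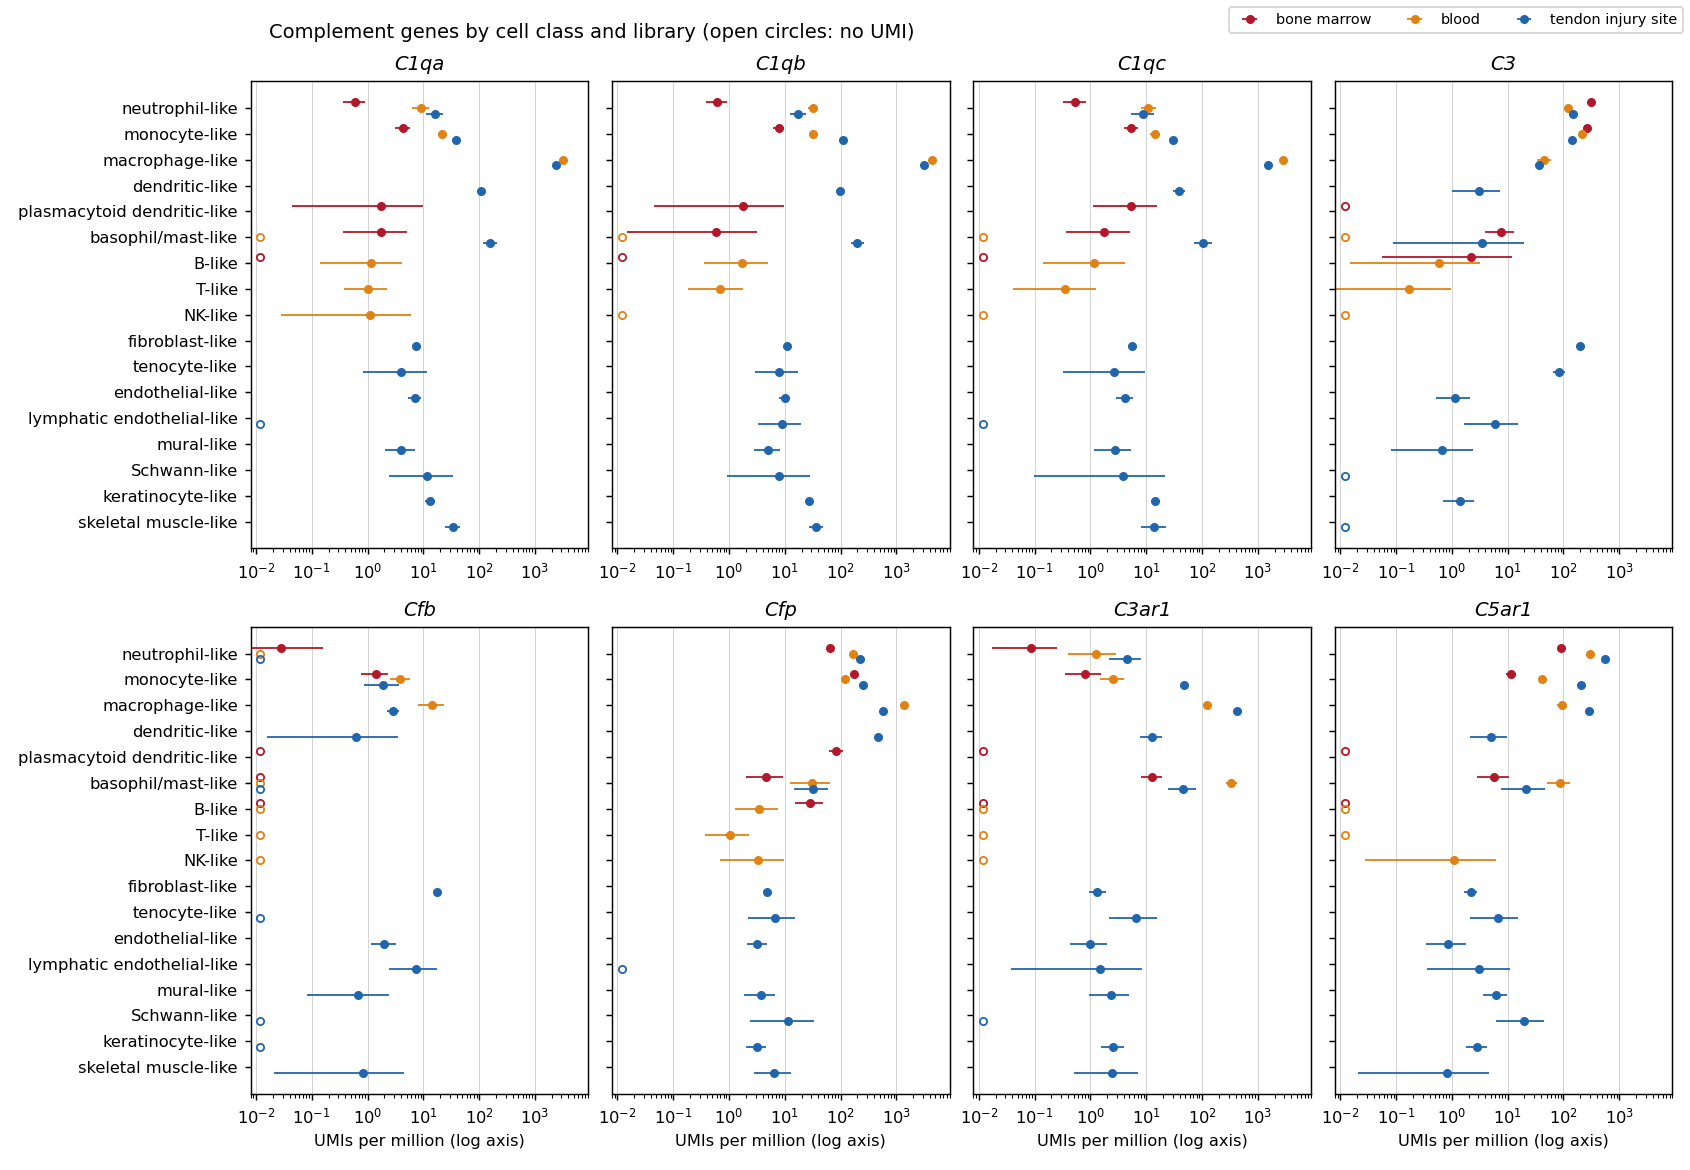
CPM (log axis) of the 8 genes in each named cell class of at least 30 cells, in red for bone marrow, orange for blood, and blue for tendon. Bars are exact Poisson 95% intervals and open circles at the left edge mark classes with no UMI. The C1q chains peak in macrophage-like cells of tendon (*C1qa* 2433) and blood (3199), *C3* is high in marrow neutrophil-like (315) and tendon fibroblast-like cells (198), and *C5ar1* is highest in tendon neutrophil-like cells (560).

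Monocyte-like and macrophage-like cells made up 40.8% of the kept tendon cells and held 87.9% (87.8 to 88.1) of the C1q UMIs of that site. A further 10.8% lay in the unnamed clusters, and the share ranged from 74.7% to 98.7% under other ways of filtering, clustering, and naming the cells. When each cell was thinned to 1000 UMIs so that depth did not differ, *C1qa* was seen in 68.3%, *C1qb* in 74.4%, and *C1qc* in 60.9% of tendon macrophage-like cells. These shares were 0.759%, 1.52%, and 0.759% in fibroblast-like cells, which should lack C1q, and 5.56%, 8.33%, and 4.17% in 72 skeletal muscle-like cells. Median depth before thinning was 13296 UMIs in macrophage-like, 35514.5 in fibroblast-like, and 3113.5 in skeletal muscle-like cells. In tendon monocyte-like cells (median 10928 UMIs) the shares were 2.33%, 6.06%, and 2.33%, below those of the skeletal muscle-like cells, and in tendon neutrophil-like cells (median 3496 UMIs) they were 1.86%, 2.97%, and 0.558%. The neutrophil-like shares lay above the fibroblast-like ones for *C1qa* and *C1qb* and below for *C1qc*, and below the skeletal muscle-like ones for each chain. The monocyte-like shares lay above the fibroblast-like and below the skeletal muscle-like ones. These orders are of the shares alone, and the skeletal muscle-like shares rest on only 72 cells. The interval of the neutrophil-like *C1qc* share (0.115% to 1.62%, 3 of 538 cells) included the fibroblast-like share. Whether the C1q UMIs of neutrophil-like and monocyte-like cells were background or expression was not tested.

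The chains were usually seen in the same cells. At 1000 UMIs, 48.6% (46.1 to 51.2) of 1507 tendon macrophage-like cells had a UMI of all 3 chains and 17.2% had none, and without thinning 79.0% had all 3. Of the 37 blood macrophage-like cells, 29 (78.4%) had all 3 at 1000 UMIs. Among tendon monocyte-like cells 3 of 429 had all 3 (0.699%). Among fibroblast-like cells, 6 of 660 had all 3 even without thinning (0.909%). Detection at 1000 UMIs still depends on level, and the share with all 3 chains in tendon macrophage-like cells was 27.0% at 500 UMIs and 66.4% at 2000 UMIs. The proportions of the chains differed somewhat between groups. *C1qa*, *C1qb*, and *C1qc* gave 34.3%, 44.6%, and 21.1% of the C1q UMIs in tendon macrophage-like cells and 31.0%, 41.7%, and 27.3% in blood macrophage-like cells. In fibroblast-like cells they gave 31.4%, 45.0%, and 23.7%, and in tendon neutrophil-like cells 37.9%, 41.1%, and 21.1%, both close to the macrophage-like cells of the same library. In tendon monocyte-like cells *C1qb* took 61.2%.

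**Figure D2:**
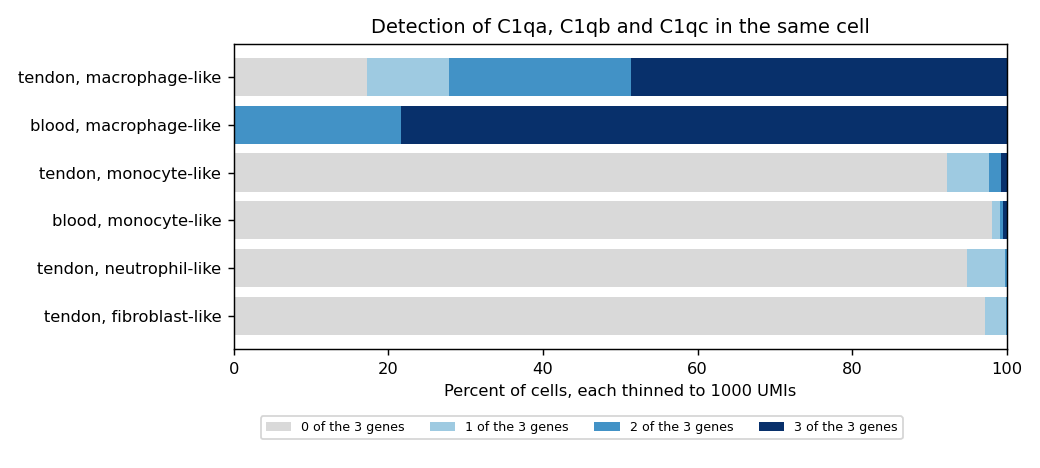
Share of cells (percent, x axis) with a UMI of 0, 1, 2, or 3 of the C1q chain genes after each cell was thinned to 1000 UMIs, for 6 groups of cells. All 3 chains were found in 48.6% of tendon and 78.4% of blood macrophage-like cells, and in 0.699% of tendon monocyte-like cells.

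In several other classes, a few cells carried most of the C1q UMIs. In blood monocyte-like cells 9 of 426 cells held 437 of 457 C1q UMIs (95.6%), and in bone marrow monocyte-like cells 4 of 350 cells held 166 of 176 (94.3%). A single blood neutrophil-like cell held 121 of the 207 C1q UMIs of its class. The same was true of 1 tendon B-like cell (207 of 210 UMIs), 1 tendon basophil/mast-like cell (122 of 132), and 1 keratinocyte-like cell (288 of 435). In tendon monocyte-like cells, 24 of 429 cells with all 3 chains held 614 of 833 UMIs (73.7%). The classes used above as references were uneven as well. Cells with all 3 chains held 69 of 104 UMIs in skeletal muscle-like cells (5 of 96 cells) and 274 of 609 in fibroblast-like cells (6 of 660). In contrast, the C1q UMIs of tendon macrophage-like cells were spread over 1202 cells with all 3 chains, which held 99.2% of them. The 95 C1q UMIs of tendon neutrophil-like cells were spread as well, with at most 2 in 1 cell. Why the UMIs of some classes lay in so few cells was not tested.

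Within the tendon injury site, the C1q level differed between groups of phagocyte clusters. The cluster led by *Gpnmb* and *Cd5l* (198 cells) had 9230 CPM (9115 to 9347) summed over the chains. The interferon-response cluster led by *Ifit2* and *Rsad2* (133 cells) had 9132 CPM (8999 to 9266). The cluster led by *Cd209g*, *Cd163*, and *Lyve1* (290 cells) had 9011 CPM (8925 to 9098). The interval of the *Ifit2* cluster overlapped those of the *Gpnmb* and *Cd209g* clusters, which did not overlap each other. The cluster led by *Cela1*, *Mrc1*, and *Pf4* (282 cells) followed with 7246 CPM. Lower levels were found in the clusters led by *Il10* and *Gpr84* (325 cells, 4875 CPM) and by *Arg1* and *Ppbp* (293 cells, 4771 CPM), whose intervals overlapped. Next came the unnamed clusters led by *Acp5* (2800 CPM) and by *Cd74* (2044 CPM), and last the monocyte-like cluster led by *Ly6c2* and *Plac8* (177 CPM). Among macrophage-like clusters the highest and lowest levels of each chain were about 2-fold apart. *C1qa* ranged from 1526 to 3214 CPM, *C1qb* from 2160 to 4314 CPM, and *C1qc* from 936 to 2027 CPM.

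**Figure D3:**
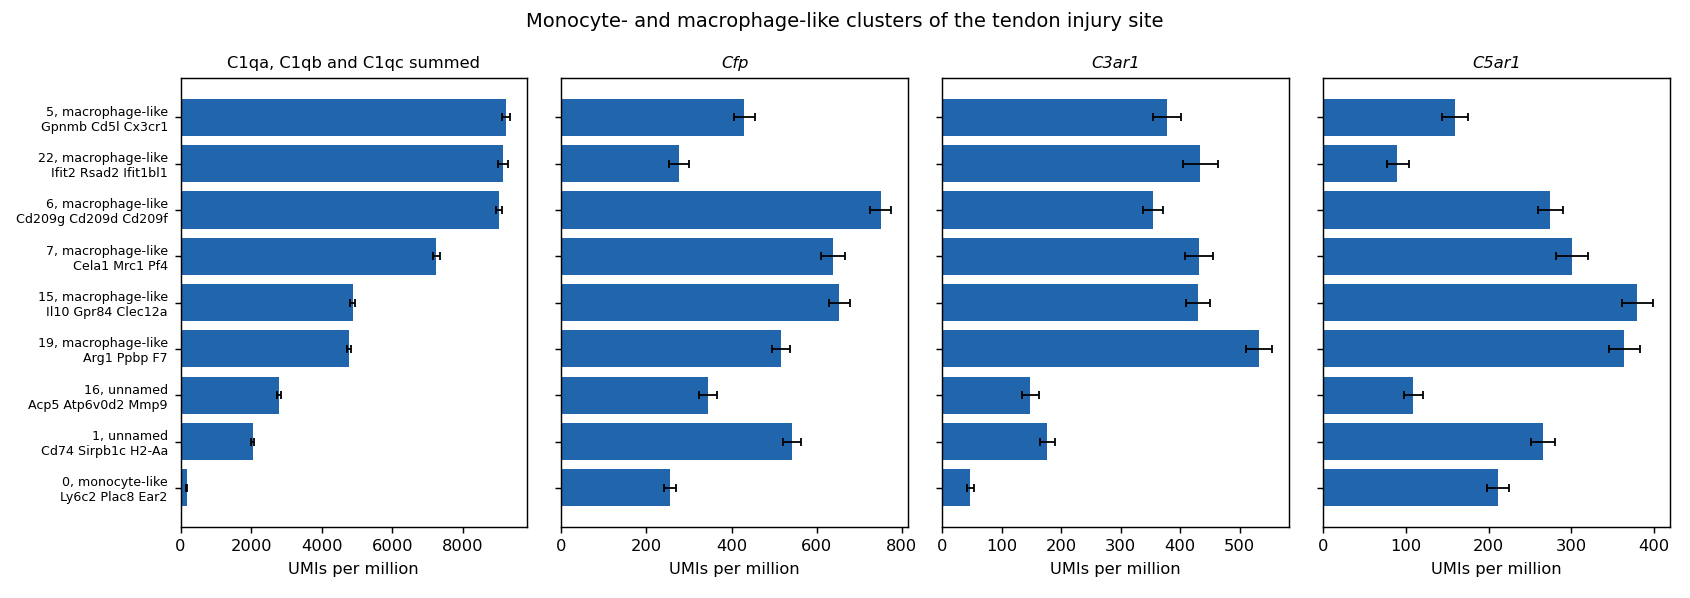
CPM (x axes) of the summed C1q chains, *Cfp*, *C3ar1*, and *C5ar1* in the 9 monocyte-like, macrophage-like, and unnamed phagocyte clusters of the tendon injury site, each labelled with its number, class, and leading genes. Error bars are exact Poisson 95% intervals. C1q ranges from 177 in the monocyte-like cluster to 9230, whereas *C5ar1* is lowest (89.9) in the cluster led by *Ifit2* and highest (380) in that led by *Il10*.

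Between sites, the direction for C1q depended on which cells were compared. Across monocyte-like and macrophage-like cells together, C1q was higher in tendon than in blood (log2 ratio 1.93, 1.90 to 1.96), and each chain was more than 2-fold higher (*C1qa* 2.07, *C1qb* 2.02, *C1qc* 1.57). Macrophage-like cells were 1521 of these 1950 cells in tendon and 37 of 463 in blood. Within macrophage-like cells alone C1q was lower in tendon than in blood (-0.54, -0.57 to -0.51), with log2 ratios of -0.40 for *C1qa*, -0.44 for *C1qb*, and -0.91 for *C1qc*. Different clusters made up the class at the 2 sites. *Timd4* was at 258 CPM in the blood cluster and at no more than 1.95 CPM in the tendon macrophage-like clusters.

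*C3*, the component on which all pathways converge, was divided between granulocytes, monocytes, and stroma. Its level was 315 CPM (309 to 321) in bone marrow neutrophil-like cells, 269 CPM in bone marrow monocyte-like cells, 213 CPM in blood monocyte-like cells, and 198 CPM (192 to 203) in tendon fibroblast-like cells. Tendon neutrophil-like (150 CPM, 135 to 167) and tendon monocyte-like cells (145 CPM, 134 to 156) did not differ beyond their intervals. Blood neutrophil-like cells had 119 CPM, tenocyte-like cells 83.5 CPM, and macrophage-like cells 44.7 CPM in blood and 35.9 CPM in tendon. After thinning, 24.5% of bone marrow neutrophil-like and 3.72% of tendon macrophage-like cells had a *C3* UMI, as did 112 of 659 fibroblast-like cells, against 0.662% of dendritic-like cells. The median depths of these classes were 24138, 13296, 35514.5, and 10354 UMIs in the same order. Macrophage-like cells thus had less *C3* than monocyte-like cells at both sites, with log2 ratios of -2.01 (-2.16 to -1.86) in tendon and -2.25 (-2.69 to -1.84) in blood, opposite to C1q.

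At the tendon injury site, fibroblast-like and tenocyte-like cells were 14.6% of the cells and held 69.8% (68.7 to 70.9) of the *C3* UMIs (log2 ratio to all other cells 2.37, 2.30 to 2.44). The 3 fibroblast-like clusters were far apart. The cluster led by *C1qtnf3*, *Cxcl13*, and *Cilp* (199 cells) had 622.5 CPM of *C3*, the cluster led by *Sfrp5* and *Msln* (127 cells) 175 CPM, and the cluster led by *Crabp1*, *Il1rl1*, and *Cxcl5* (334 cells) 45.0 CPM. The first was 3.79 log2 units above the last (3.68 to 3.91), and with 30.2% of the fibroblast-like cells it held 74.3% of their *C3* UMIs. Tendon neutrophil-like cells also differed by cluster, with 252 CPM of *C3* in the 227 cells led by *Il23a*, *Il1a*, and *Irg1* and 108.5 CPM in the 332 cells led by *Retnlg* and *Ly6g* (log2 ratio 1.22, 0.90 to 1.53). In blood, the monocyte-like cluster led by *F13a1*, *Vcan*, and *Chil3* had 242 CPM, and the one led by *Cd300e* and *Ace* had 34.0 CPM (log2 ratio 2.83, 2.32 to 3.38).

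*Cfb*, the protease subunit of the alternative convertase, was sparse and mostly stromal at the injury site. Fibroblast-like cells had 17.5 CPM (15.9 to 19.2) and fibroblast-like and tenocyte-like cells together held 445 of the 556 tendon UMIs (80.0%, 76.5 to 83.3), all of them in fibroblast-like cells. With coarser clusters (resolution 0.5) the share in cells named fibroblast-like or tenocyte-like was 31.7%. The 39 tenocyte-like cells had no UMI, which allows up to 3.98 CPM. Lymphatic endothelial-like cells had 7.51 CPM from 5 UMIs, tendon macrophage-like cells 2.90 CPM, and endothelial-like cells 1.99 CPM. Blood macrophage-like cells had 14.3 CPM (8.17 to 23.2) from 16 UMIs, overlapping the fibroblast-like level, and blood monocyte-like cells 3.86 CPM. No *Cfb* UMI was found in neutrophil-like cells of blood or tendon, which allows up to 0.746 and 1.34 CPM, and 1 was found in bone marrow. Over the fibroblast-like clusters *Cfb* followed *C3* only in part. It was 24.2 CPM in the cluster led by *C1qtnf3* and 26.6 CPM in that led by *Sfrp5*, which did not differ beyond counting error (log2 ratio 0.14, -0.27 to 0.53). Both were above the cluster led by *Crabp1* (log2 ratios 0.87, 0.55 to 1.18, and 1.01, 0.63 to 1.37). With 13.3 CPM of *Cfb*, the cluster led by *Crabp1* was lowest, as it was for *C3*. That last cluster, with 50.6% of the fibroblast-like cells, held 48.3% of their *Cfb* UMIs and 14.5% of their *C3* UMIs.

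**Figure D4:**
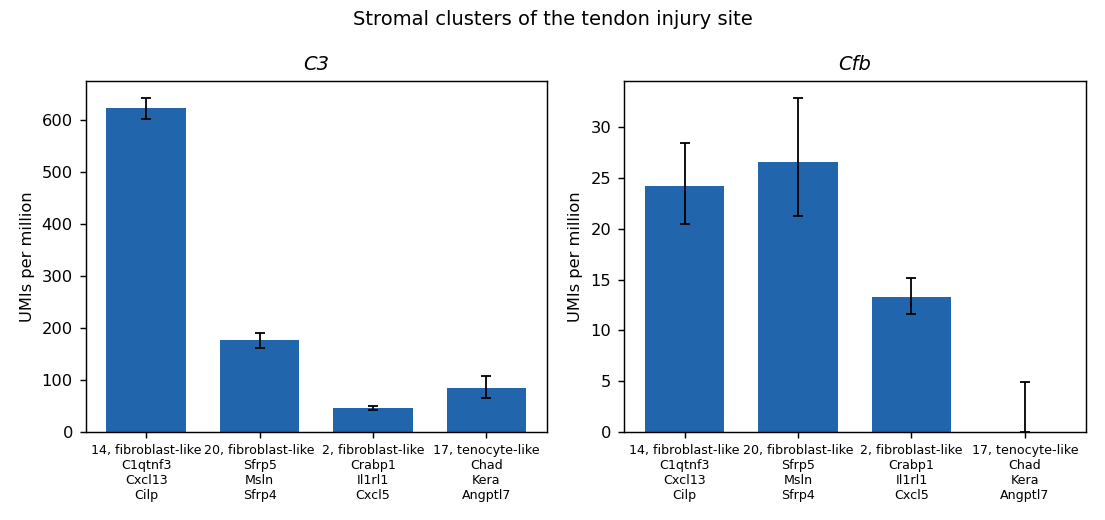
CPM (y axes) of *C3* (left) and *Cfb* (right) in the 3 fibroblast-like clusters and the tenocyte-like cluster of the tendon injury site, labelled with their number and leading genes. Error bars are exact Poisson 95% intervals. *C3* spans 45.0 to 622.5 across fibroblast-like clusters, *Cfb* 13.3 to 26.6.

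*Cfp*, which encodes properdin, was carried by myeloid cells at all 3 sites. Blood macrophage-like cells had the highest level, 1345 CPM (1278 to 1415), above tendon macrophage-like cells at 580 CPM (570 to 591). Tendon dendritic-like cells (467 CPM) and the unnamed tendon clusters (465 CPM) did not differ beyond their intervals. Monocyte-like cells had 255 CPM in tendon, 172 CPM in bone marrow, and 121 CPM in blood, and neutrophil-like cells had 228, 64.4, and 169 CPM in the same order. Bone marrow plasmacytoid dendritic-like cells had 83.4 CPM. After thinning, 40.6% of tendon macrophage-like and 22.5% of tendon neutrophil-like cells had a *Cfp* UMI, against 0.303% of fibroblast-like and 2.78% of skeletal muscle-like cells. Macrophage-like clusters of the tendon ranged from 277 CPM in the cluster led by *Ifit2* to 750 CPM in that led by *Cd209g* (log2 ratio 1.44, 1.31 to 1.57), 2 clusters with nearly the same C1q level.

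The C3a receptor gene *C3ar1* was highest in tendon macrophage-like cells, at 428 CPM (419 to 437). Its range over their clusters was narrow, from 354 CPM (*Cd209g* cluster) to 532 CPM (*Arg1* cluster). The unnamed tendon clusters had 166 CPM and tendon monocyte-like cells 47.5 CPM. In blood the highest level was not in macrophage-like cells (124 CPM, 104 to 147) but in the 34 basophil/mast-like cells, led by *Cpa3*, *Mcpt8*, and *Ms4a2*, with 336.5 CPM (265 to 422). That level came from 75 UMIs in 27 of the 34 cells, with at most 6 in 1 cell. It was 1.44 log2 units (1.01 to 1.85) above blood macrophage-like cells and 4.73 (4.02 to 5.48) above the basophil/mast-like cells of the bone marrow, which had 12.7 CPM from 22 UMIs. The bone marrow cluster was mixed, with *Car1*, *Car2*, and *Ermap* of erythroid cells beside *Mcpt8* and *Cpa3* among its leading genes, a stem/progenitor score (2.63) close to its basophil/mast score (3.01), and 400.7 CPM of *Mki67*, which had no UMI in the blood cluster. Tendon basophil/mast-like cells, led by the mast cell protease genes *Mcpt4* and *Cma1* but also by *Gzma*, *Gzmb*, and *Nkg7* of cytotoxic cells, had 45.7 CPM from 13 UMIs. After thinning, 34.0% of tendon macrophage-like and 32.4% of blood basophil/mast-like cells had a *C3ar1* UMI, against 0.558% of tendon neutrophil-like and 1.39% of skeletal muscle-like cells. Blood basophil/mast-like cells had a median of 6611.5 UMIs. Neutrophil-like cells had 4.46 CPM or less at every site.

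*C5ar1*, the receptor of the neutrophil chemoattractant C5a, had its highest CPM in neutrophil-like cells. Tendon neutrophil-like cells had 560 CPM (530 to 592), those of the mononucleated blood fraction 297 CPM (280 to 314), and those of bone marrow 91.1 CPM (87.9 to 94.3). Blood neutrophils outside that fraction were not measured. Median depth was 3496 UMIs in tendon and 8633 UMIs in blood neutrophil-like cells. The *C5ar1* values came from 1255 UMIs in 559 tendon cells and 1193 UMIs in 399 blood cells. Without thinning, 77.6% of the tendon and 89.7% of the blood cells had a *C5ar1* UMI. The higher tendon level is thus one per UMI and not per cell. Tendon macrophage-like cells had 285 CPM (278 to 292), which did not differ beyond counting error from blood neutrophil-like cells, and tendon monocyte-like cells 211 CPM. Macrophage-like cells, 31.8% of the tendon cells, held 59.8% of the *C5ar1* UMIs of that site. Neutrophil-like cells, 11.7% of the tendon cells, held 12.7%. Blood macrophage-like (92.9 CPM) and basophil/mast-like cells (85.3 CPM) overlapped. Monocyte-like cells had 41.7 CPM in blood and 11.4 CPM in bone marrow. After thinning, a *C5ar1* UMI was seen in 41.1% of tendon neutrophil-like, 29.0% of blood neutrophil-like, and 25.9% of tendon macrophage-like cells, against 0.152% of fibroblast-like and 1.39% of skeletal muscle-like cells. The 659 T-like cells of the blood had no *C5ar1* UMI, which allows up to 0.515 CPM. Within tendon macrophage-like cells the clusters were 2.08 log2 units apart (1.85 to 2.31).

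Bone marrow neutrophil-like cells were divided into precursor (284 cells), immature (719 cells), and mature stages (286 cells) by their stage markers. *C5ar1* went from 22.9 to 107 to 252 CPM along these stages (mature to precursor 3.46, 3.27 to 3.65), and *Cfp* from 29.6 to 68.3 to 169 CPM (2.52, 2.33 to 2.71). In contrast, *C3* was highest at the immature stage, with 223, 404, and 178 CPM. Median depth fell from 42413.5 to 24364 to 12453.5 UMIs over these stages. CPM are shares of all UMIs, so the increases in UMIs per cell were smaller than those in CPM. In stage order, *C5ar1* had 297, 2021, and 906 UMIs, *Cfp* 383, 1288, and 609, and *C3* 2896, 7606, and 641. With 284 precursor and 719 immature cells, *C3* UMIs per cell differed little between these stages. The *C3* peak at the immature stage is thus one in CPM. All clusters of blood and tendon neutrophil-like cells scored as mature. One of them, in blood (64 cells), was nevertheless led by *Camp*, *Ltf*, *Ngp*, and cell cycle genes such as *Mki67* and *Top2a*. Its *Cd74* (785.5 CPM) and *Ccr2* (96.8 CPM) were above those of the other blood cluster (7.58 and 1.08 CPM). The class name may thus not hold for all cells of this cluster. It had 180 CPM of *C5ar1* against 349 CPM in the other blood cluster and held 195 of the 207 C1q UMIs of blood neutrophil-like cells. Between mature cells of blood and bone marrow *C5ar1* differed by 0.24 log2 units (0.11 to 0.36), *Cfp* by -0.01 (-0.17 to 0.16), and *C3* by -0.58 (-0.75 to -0.41). Between tendon and blood the differences were 0.92 (0.80 to 1.03), 0.43 (0.26 to 0.60), and 0.34 (0.13 to 0.54). All of these differences are per UMI and not per cell. *Cfp* had 510 UMIs in 559 tendon cells and 678 UMIs in 399 blood cells, and *C3* had 337 and 479 UMIs. Values for blood depended on the cluster led by cell cycle genes. Without it, blood had 349 CPM of *C5ar1*, 173 CPM of *Cfp*, and 92.0 CPM of *C3*, against 252, 169, and 178 CPM in mature bone marrow cells and 560, 228, and 150 CPM in tendon, and the *C5ar1* log2 ratio of tendon to blood was 0.68.

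**Figure D5:**
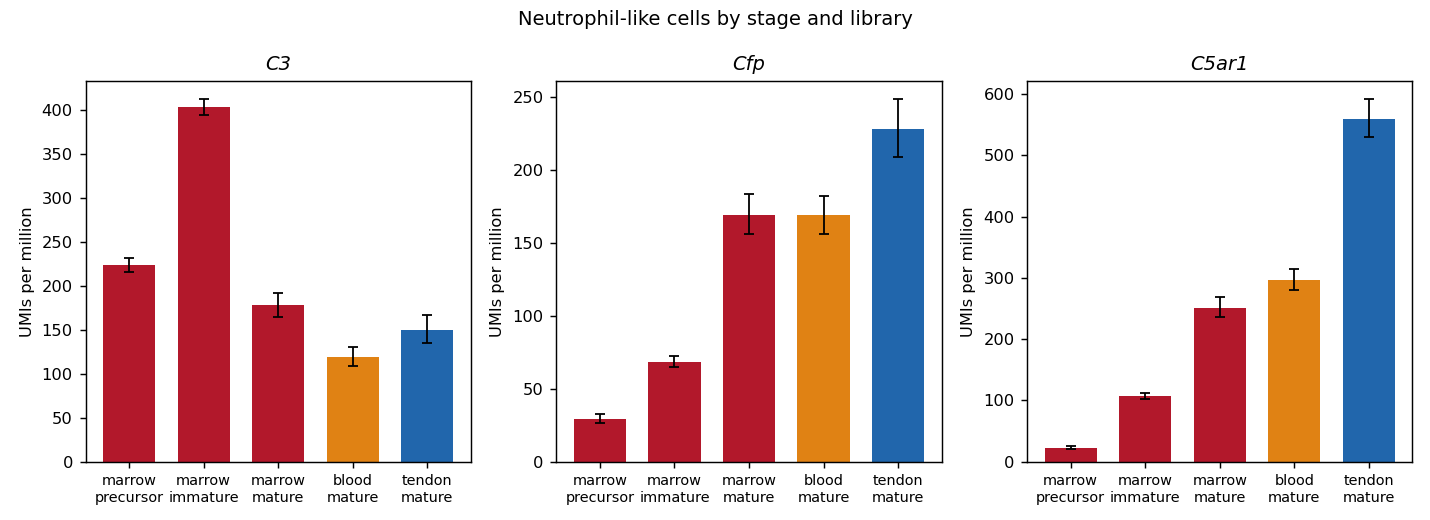
CPM (y axes) of *C3*, *Cfp*, and *C5ar1* in neutrophil-like cells, for 3 stages of bone marrow (red) and the mature cells of blood (orange) and the tendon injury site (blue). Error bars are exact Poisson 95% intervals. *C5ar1* is lowest in marrow precursors (22.9) and highest in tendon (560), whereas *C3* is highest in immature marrow cells (404). The blood bars include the cluster led by cell cycle genes.

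To place these differences against all genes, a gene was tested in a pair of sites if it had at least 100 UMIs over both groups, and was called if its level differed 2-fold or more. A gene can reach this minimum through the group in which it is high, so the counts are descriptions. In neutrophil-like cells, 4 of the 8 genes had enough UMIs for tendon against blood and none was called, where 28.5% of all 3989 tested genes were (13.6% higher and 14.8% lower). The median log2 ratio of the 4 genes was 0.39 and that of all tested genes -0.16. With scaling by trimmed means of M values (TMM), which moved every ratio of this pair up by 0.21, *C5ar1* passed 2-fold (1.13). For blood against bone marrow 4 could be tested and all 4 were called, where 49.5% of all tested genes were called (12.4% higher and 37.1% lower). *C5ar1* (log2 ratio 1.70), *Cfp* (1.39), and *C1qb* (5.67) were higher in blood and *C3* was lower (-1.40). The *C1qb* value rests on 127 UMIs in 11 blood cells, 59 of them in 1 cell. For tendon against bone marrow 3 could be tested and all 3 were called (62.4% of all tested genes, 14.7% higher and 47.7% lower), with *C5ar1* at 2.62, *Cfp* at 1.82, and *C3* at -1.07. Stage composition differed between the bone marrow and the other sites, as given above.

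In monocyte-like cells, 7 genes could be tested for tendon against blood and 5 were 2-fold or more higher in tendon, where 21.8% of all tested genes were called in either direction, 6.63% higher and 15.2% lower. The median log2 ratio of the 7 genes was 1.08 and that of all tested genes -0.28, and TMM scaling moved all ratios of this pair up by 0.31. The largest ratio was that of *C3ar1*, from 2.53 CPM in blood to 47.5 CPM in tendon (log2 ratio 4.23, 3.52 to 5.04), the blood value from 17 UMIs in 9 cells and the ratio from 4.37 to 5.54 over the alternatives tried, followed by *C5ar1*, from 41.7 to 211 CPM (2.34, 2.14 to 2.53). *C1qb* (1.77), *C1qc* (1.08), and *Cfp* (1.08) were also called, with 24 tendon cells holding most of the C1q UMIs, as described above. *C1qa* was 0.83 higher and *C3* was 0.55 log2 units lower (-0.55, -0.69 to -0.42), both within 2-fold. How the monocyte-like cells were delimited moved the C1q ratios most, from 0.72 to 5.11 for *C1qa*, 1.39 to 4.72 for *C1qb*, and 0.96 to 4.72 for *C1qc* over the alternatives tried, all in the same direction. For blood against bone marrow 4 of 6 tested genes were higher, where 15.1% were called in either direction, 5.24% higher and 9.84% lower. *C5ar1* was at 1.88, and the 3 C1q chains, at 1.42 to 2.33, rest on few cells, as described above, and changed direction under several of the alternatives tried. For tendon against bone marrow 5 of 7 were higher (35.2% of all tested genes in either direction, 8.16% higher and 27.0% lower), with *C3ar1* at 5.90 and *C5ar1* at 4.21. The blood and bone marrow groups enter more than 1 of these comparisons, which therefore share samples. Bone marrow monocyte-like cells included clusters of 74 and 86 cells with 1107 and 875 CPM of the cell cycle gene *Mki67*. The remaining cluster, of 190 cells, had 51.0 CPM of *Mki67* and held all 176 C1q UMIs. *Mki67* was at 5.87 and 1.06 CPM in the blood clusters and 10.65 CPM in tendon, so the cells compared with bone marrow differed in more than site. Across monocyte-like and macrophage-like cells together, all 8 genes could be tested for tendon against blood, with 5 higher and 1 lower by 2-fold or more, where 25.2% of all tested genes were called in either direction, 14.8% higher and 10.5% lower (median log2 ratio 1.79 for the 8 genes and -0.02 for all tested genes). *C3ar1* had the largest ratio (4.17) and *C3* was lower (-1.75). *C5ar1* was at 2.47, *Cfp* at 0.82, and *Cfb* at -0.98. In macrophage-like cells alone *Cfp* was lower in tendon (-1.21, -1.29 to -1.13), while *C3ar1* (1.78) and *C5ar1* (1.62) were higher. Bone marrow had no macrophage-like cluster, so both other sites were set against its monocyte-like cells. For blood, 5 of 7 tested genes were higher, with the chains of C1q at 6.26 to 6.79, where 15.7% of all tested genes were called (6.18% higher and 9.51% lower). For tendon, 6 of 7 were higher and *C3* was lower (-2.26), where 32.8% were called (15.8% higher and 17.0% lower).

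Of 43 other complement genes listed, 42 were in the tables and 39 had a UMI in a kept cell, and 22 reached 20 CPM in a class of at least 30 cells. By role these were 8 of 15 classical and lectin pathway genes, 7 of 12 regulators, and 7 of 7 receptors, but neither *Cfd*, the alternative pathway protease factor D, nor any of the 7 genes of the terminal pathway. Fibroblast-like cells, highest for *Cfb*, were also the highest class for *Serping1*, the C1 inhibitor (410 CPM), for *C1ra* (57.6 CPM), and for *C2* (21.0 CPM), and they had 65.4 CPM of *C1s1* against 79.1 CPM in mural-like cells. *C1ra* (1757 tendon UMIs) and *C1s1* (2026) have close copies, *C1rb* and *C1s2*, which had only 4 and 10 UMIs in tendon. How reads that match both copies were counted was not tested. Blood macrophage-like cells, highest for C1q, also had the highest *C4b* (660 CPM), *Fcna* (543 CPM), *Itgam* (822 CPM), *Itgb2* (913 CPM), and *Vsig4* (68.8 CPM, against 1.11 CPM in tendon macrophage-like cells). *C4b* has a near-identical copy, *C4a*, and is therefore uncertain. *Fcnb*, a ficolin of the lectin pathway, was highest in bone marrow neutrophil-like cells (743 CPM) and went from 1166 to 594.5 to 1.11 CPM over their stages, opposite in order to *C5ar1*. Among these, *Fcna*, *Fcnb*, and *C2* were each among the 10 leading genes of a cluster, as were *Cr2* in blood B-like and *Cd55* in bone marrow neutrophil-like cells.

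Further genes of the list, regulators and others, were highest in stromal cells, lymphocytes, or other leukocytes. Tenocyte-like cells led for *Clu* (438 CPM) and the scavenger receptor gene *Colec12* (178 CPM), mural-like cells for *Vtn* (57.8 CPM) and *Colec11* (29.1 CPM), and Schwann-like cells for *Cd59a* (503 CPM), an inhibitor of the membrane attack complex. Blood B-like cells led for *Cd55* (474 CPM), which dissociates C3 convertases, and for *Cr2* (192 CPM). *Cr1l* was at 148 CPM (102 to 208, 33 UMIs) in blood basophil/mast-like cells and 146 CPM (122 to 173) in blood NK-like cells. These 2 levels did not differ beyond their intervals. *Cd93* was at 411 CPM in endothelial-like and 275 CPM in tendon macrophage-like cells, and *Itgax* was highest in blood NK-like cells (75.7 CPM). *C5ar2*, the second C5a receptor, was at 41.5 CPM in tendon and 38.6 CPM in blood neutrophil-like cells, and had the same order as *C5ar1* over the bone marrow stages (4.40, 11.1, and 33.3 CPM). In neutrophil-like cells 7 of these other genes could be tested for tendon against blood, 2 were higher (*Itgax*, *Cd93*), and 1 lower (*Fcnb*), where 28.5% of all tested genes were called (13.6% higher and 14.8% lower). In monocyte-like and macrophage-like cells together 14 could be tested, 3 were higher in tendon (*Cd55*, *C5ar2*, *Cd93*), and 6 lower (*C4b*, *Fcna*, *Fcnb*, *Itgax*, *Itgb2*, *Vsig4*), where 25.2% of all tested genes were called (14.8% higher and 10.5% lower).

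The likeness of patterns was described by Pearson correlation of log2(CPM + 1) over the 25 groups of at least 30 cells, among 10684 genes with at least 500 UMIs. These groups share libraries and no p is given. The C1q chains were closest to each other (*C1qa* with *C1qc* 0.983, *C1qa* with *C1qb* 0.963, *C1qb* with *C1qc* 0.965), followed by *Ccl24* for *C1qa* (0.851) and *C1qc* (0.868) and *Msr1* for *C1qb* (0.858). *C3* was closest to *C1rl* (0.875), *Hnmt* (0.829), and *Abcd2* (0.809), and *Cfb* to *Gm1673* (0.753), *Lpl* (0.736), and *Fn1* (0.726). The nearest genes to *Cfp* were *Csf2ra* (0.919), *Cd300a* (0.897), and *Lrrc25* (0.893). *C3ar1* was nearest to *Slc7a8* (0.927), *Ccl9* (0.837), and *P2rx4* (0.786), and *C5ar1* to *Ccr1* (0.929), *Clec4d* (0.910), and *Lilrb4a* (0.903).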

How the data were processed

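The deposited values were unnormalized UMI counts for each cell and gene; per the file headers they came from Cell Ranger 5.0.1, and mm10 is named in the submitters' processing notes. The 8 genes and all lists were chosen with earlier results of these data known. Ensembl identifiers were matched to GENCODE M21 (GRCm38) for gene coordinates, and promoters came from RefSeq.

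Cells needed at least 200 genes and at most 20% mitochondrial UMIs. As likely doublets, the cells with the highest Scrublet scores were left out at a rate of 0.8% for every 1000 cells (27, 38, and 198 cells of bone marrow, blood, and tendon). Each library was clustered with scanpy 1.11.5 (2000 variable genes, 30 components, 15 neighbors, Leiden resolution 1.0). From the variable genes, 50 complement genes were left out. A cluster took the class with the highest mean marker level, at least 3 raised markers, and no more markers of another class than of its own among its 10 leading genes. This naming rule was settled only once the clusters were known, and a difference from the classes of the study may come from the rebuilt names. Of 240 markers in 23 lists, 231 were in the files. Neutrophil-like clusters took the stage with the highest mean marker level and at least 3 raised markers. Their leading genes were not checked for the stage. Blood clusters left unnamed held 115 cells.

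CPM were sums of UMIs per group over all UMIs of the group, with exact Poisson intervals. Shares had Clopper-Pearson intervals, and intervals of ratios used an exact binomial split between the groups. A count of 0 was given an upper limit of 3 counts. The genes named are the 8 genes, other complement genes with at least 20 CPM in a class of at least 30 cells, and the 3 genes most like each of the 8. One listed gene is not reported here. Intervals of ratios and shares were tried on simulated counts that vary by counting error only. UMIs gathered in few cells, as seen for C1q, were not simulated, so the intervals were not tested for them. Alternatives changed the cell filters, doublets, clustering, naming, scaling, minimum count, and thinning. Software was Python 3.11.15 with scipy 1.17.1, scikit-learn 1.9.0, numpy 2.4.6, and pandas 2.3.3, and R 4.3.3 with Seurat 5.3.0 and edgeR 4.0.16 (for trimmed mean of M values, TMM, scaling only).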

Additional observations from a re-analysis of the deposited data

Results flagged for a closer look

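For 3 genes the difference in CPM between sites had opposite signs in neutrophil-like and monocyte-like cells. With 1 library per site, the difference between the cell classes was not tested. *C1qb* was lower in tendon than in blood in neutrophil-like cells (log2 ratio -0.86) and higher in monocyte-like cells (1.77), and the blood neutrophil-like value came from 127 UMIs, 59 of them in 1 cell, and kept its sign in 5 of 11 other ways of processing. *C3* was higher in tendon than in blood in neutrophil-like cells (0.34) and lower in monocyte-like cells (-0.55), both within 2-fold. Neutrophil-like cells had 337 *C3* UMIs in 559 tendon cells and 479 UMIs in 399 blood cells. Monocyte-like cells had 681 UMIs in 429 tendon cells and 1432 UMIs in 426 blood cells. Per cell, *C3* was thus lower in tendon in both classes. From bone marrow to blood, the *Cfp* level was higher in neutrophil-like cells (log2 ratio of blood to bone marrow 1.39) and lower in monocyte-like cells (-0.51). Within mature neutrophil-like cells the *Cfp* value was -0.01. Neutrophil-like cells had 678 *Cfp* UMIs in 399 blood cells and 2280 UMIs in 1289 bone marrow cells. The *Cfp* increase was thus likewise in CPM and not in UMIs per cell.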

How the results depend on the processing

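No paired analysis was possible because each site has 1 library, and no library was left out for the same reason. Results for cells of 1 class depended on how classes were drawn, and the cause was not tested. The 6 ratios in the next 2 paragraphs, for C1q, *C5ar1*, *Cfp*, and *C3ar1*, kept their sign in all alternatives run. These alternatives did not include macrophage-like cells alone. There C1q (-0.54) and *Cfp* (-1.21) were lower in tendon than in blood, opposite to both phagocyte classes together, whereas *C3ar1* was higher (1.78).

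The share of tendon C1q UMIs in monocyte-like and macrophage-like cells (87.9%) was 80.1% with no cell filter, 80.1% with at least 500 genes and at most 10% mitochondrial UMIs (the stricter filter), 74.7% with doublets kept, 89.6% and 81.3% at resolutions 0.5 and 2.0, 82.3% with all genes allowed among the variable genes, 95.2% with the libraries clustered together, 88.3% with Seurat integration, 91.4% with each cell named alone, and 98.7% with the unnamed clusters included. In the same order, the C1q ratio of tendon to blood in these cells (1.93) was 1.81, 1.74, 1.74, 1.75, 1.56, 1.82, 1.74, 1.85, 2.02, and 1.71. It was 2.56 with cells weighted equally, 2.03 with TMM scaling, and 1.39 in monocyte-like cells only. The *C3* share in fibroblast-like and tenocyte-like cells (69.8%) was 62.9% with the stricter filter, 63.8% with doublets kept, 55.7% and 63.0% at resolutions 0.5 and 2.0, and 68.5% with each cell named alone. The *Cfb* share (80.0%) was 65.9%, 69.4%, 31.7%, and 67.8% under the first 4 of these.

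In neutrophil-like cells, *C5ar1* from tendon to blood (0.92) was 0.78 at both resolutions, 0.66 clustered together, 0.70 integrated, 0.64 with each cell named alone, 0.74 weighted equally, 1.13 with TMM, and 0.68 without the blood cluster led by cell cycle genes. From blood to bone marrow (1.70) it was 1.93 with the stricter filter, 2.03 clustered together, 1.41 integrated, 1.83 with each cell named alone, 1.41 weighted equally, 1.91 with TMM, 1.94 without that cluster, and 0.24 at the mature stage only. *Cfp* from tendon to blood (0.43) was 0.26 clustered together, 0.24 integrated, and 0.65 with TMM. In monocyte-like and macrophage-like cells together, *Cfp* (0.82) was 0.70 with the stricter filter, 0.57 at resolution 2.0, 0.72 integrated, 0.95 with each cell named alone, 1.32 weighted equally, 0.92 with TMM, and 1.08 in monocyte-like cells only, and *C3ar1* (4.17) was 3.88 at resolution 2.0 and 4.85 weighted equally. Including the unnamed clusters, monocyte-like cells only, leaving out the blood cluster, and the mature stage only were chosen after seeing the data.

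From blood to bone marrow in monocyte-like cells the C1q chains changed direction. *C1qa* was -0.70 with the stricter filter, -1.62 at resolution 2.0, -1.06 with all genes allowed, and -0.18 weighted equally. *C1qb* was -0.04, -0.86, and -0.19 under the first 3, and *C1qc* was -1.03, -1.94, -1.31, and -0.93 under all 4. *C1qb* from tendon to blood in neutrophil-like cells, which was not called, ranged from -1.02 to 2.93 and kept its sign in 5 of 11 alternatives.

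With a minimum of 20 UMIs, genes called between tendon and blood numbered 2621 in neutrophil-like (1135 at 100 UMIs), 2862 in monocyte-like (1502), and 3685 in both phagocyte classes together (2384). The share of calls that were higher in tendon went from 30.4% to 53.3% with TMM in monocyte-like cells and from 47.9% to 61.8% in neutrophil-like cells, where it was 34.5% at 20 UMIs and 63.2% clustered together. Tendon macrophage-like cells with all 3 C1q chains (48.6%) were 27.0% at 500 and 66.4% at 2000 UMIs. Depth limited *Cfb*, with 596 UMIs over the groups of at least 30 cells, and *C3ar1* outside tendon.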
